A study of Mus musculus with 48 samples.

Results

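The transcripts of 8 genes of the insulin, IGF and PI3K pathway were followed in mouse nociceptors, the pain-sensing neurons of the peripheral nerve, after nerve crush and after loss of Tsc2. The genes were chosen by name and not by their values: the receptor genes Igf1r and Insr, the docking protein genes Irs1 and Irs2, the adaptor gene Grb10, the catalytic subunit gene Pik3ca and the kinase genes Akt1 and Akt2. They are 8 of 47643 gene identifiers in the count tables, and all 8 were among the 19048 genes that passed the filter on low counts.

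Neurons of the fourth lumbar dorsal root ganglion were sorted by ZsGreen, a fluorescent reporter at the Rosa26 locus that Nav1.8-Cre switches on, 3 days after the sciatic nerve of one side was crushed with forceps. The cKO mice carried Nav1.8-Cre, Tsc2 flox/null and Rosa26-ZsGreen, and the control mice Nav1.8-Cre, Tsc2 flox/+ and Rosa26-ZsGreen, so the control neurons had also lost 1 Tsc2 copy where Cre was active. The 4 groups were cKO ganglia of the crushed side, control ganglia of the crushed side, cKO ganglia of the uninjured (contralateral) side and control ganglia of the uninjured side. Each group held 4 replicates, 2 male and 2 female, from mice of 8 to 9 weeks on a mixed C57BL/6 and AJ background, and each replicate was sequenced as 3 technical aliquots of about 100 cells that were summed here. The reporter marks every cell with a history of Nav1.8-Cre activity, and the crush-side ganglion holds neurons with and without a crushed axon.

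Insulin and IGF1 bind receptor tyrosine kinases, the products of Insr and Igf1r, which phosphorylate the docking proteins IRS1 and IRS2. These recruit PI3K, whose lipid product brings AKT to the membrane, and AKT phosphorylates and inhibits tuberin, the product of Tsc2, so that the kinase complex mTORC1 becomes active. Active mTORC1 acts back on the top of the pathway: its target S6 kinase phosphorylates IRS proteins, and mTORC1 itself phosphorylates and stabilises GRB10, an adaptor that binds and restrains both receptors. Sensory neurons express these receptors, and insulin and IGF1 promote the growth of their neurites in culture.

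Irs2 is known as an insulin-regulated gene with FOXO and E-box control, so its promoter is shown beside that of Irs1, the other docking protein gene, followed by those of Igf1r and Grb10, whose transcripts moved in opposite directions below. Each is the RefSeq window of 250 bases before to 50 bases after a transcript start (GRCm38.p6), written 5′ to 3′ on the strand of the gene. The windows lie at chr8:11008880-11009179 on the minus strand for Irs2, chr1:82291390-82291689 on the minus strand for Irs1, chr7:67952007-67952306 on the plus strand for Igf1r and chr11:12037371-12037670 on the minus strand for the first listed start of Grb10. Capitals mark matches on either strand to any of 7 motifs, which were the FOXO core GTAAACA, the insulin response element core CAAAACA, the AP-1 site TGANTCA, the CRE TGACGTCA, the C/EBP-ATF site TGATGNAA, the E-box CACGTG and the GC box GGGCGG.
Irs2: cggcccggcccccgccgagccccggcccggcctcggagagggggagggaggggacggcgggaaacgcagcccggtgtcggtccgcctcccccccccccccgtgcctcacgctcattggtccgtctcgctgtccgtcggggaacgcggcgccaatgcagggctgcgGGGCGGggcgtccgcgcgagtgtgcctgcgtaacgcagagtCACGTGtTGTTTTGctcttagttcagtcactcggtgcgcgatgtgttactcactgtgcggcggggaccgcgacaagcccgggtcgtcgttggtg
Irs1: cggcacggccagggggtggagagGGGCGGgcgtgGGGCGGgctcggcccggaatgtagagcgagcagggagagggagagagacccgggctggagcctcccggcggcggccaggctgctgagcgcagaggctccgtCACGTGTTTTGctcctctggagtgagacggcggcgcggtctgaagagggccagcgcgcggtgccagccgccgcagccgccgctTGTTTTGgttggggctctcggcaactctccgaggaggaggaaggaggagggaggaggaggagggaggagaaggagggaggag
Igf1r: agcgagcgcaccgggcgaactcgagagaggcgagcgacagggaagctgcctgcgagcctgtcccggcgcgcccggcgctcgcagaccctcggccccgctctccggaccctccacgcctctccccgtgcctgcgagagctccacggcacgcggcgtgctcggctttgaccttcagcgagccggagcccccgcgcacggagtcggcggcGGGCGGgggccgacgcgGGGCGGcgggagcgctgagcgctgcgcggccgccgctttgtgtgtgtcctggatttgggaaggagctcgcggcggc
Grb10: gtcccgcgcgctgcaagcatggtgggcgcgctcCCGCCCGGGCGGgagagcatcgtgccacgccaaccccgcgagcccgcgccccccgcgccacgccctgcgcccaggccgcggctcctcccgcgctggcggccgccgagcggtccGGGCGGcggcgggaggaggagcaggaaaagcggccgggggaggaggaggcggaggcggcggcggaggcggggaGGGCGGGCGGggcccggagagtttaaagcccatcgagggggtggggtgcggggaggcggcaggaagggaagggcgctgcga

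In the Irs2 window the insulin response element core, read on the other strand as TGTTTTG, began at position -37 from the transcript start and the E-box at -44. The Irs1 window held the same pair, with the E-box at -115 and the core at -111, where the 2 motifs share 2 letters, and a further core at -32. Among 32851 promoters of the same length, 6.28% held the core, 7.15% the E-box and 0.0274% both with their first bases within 10 of each other, a distance that was chosen after the Irs1 and Irs2 matches were seen. The Igf1r and first Grb10 windows held only GC boxes, with 2 in Igf1r and 5 in Grb10, some overlapping, and 35.7% of all promoters held at least 1. Of the other motifs, the FOXO core was in 3.65% of promoters, the AP-1 site in 7.81%, the CRE in 1.79% and the C/EBP-ATF site in 3.97%. RefSeq promoters were matched for 7 of the 8 genes, with Insr unmatched. The Irs2 and Igf1r windows lie wholly upstream of the mm10 gene coordinates given below, so their RefSeq starts differ from the ends of those coordinates. Positions are counted from the RefSeq start only. A match describes letters only, and no binding was measured.

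Depth ran from 5159353 to 34228180 gene counts over the 48 libraries and from 36773198 to 63365268 over the 16 summed samples. Tsc2, the deleted gene, averaged 8.30 ± 2.42 CPM (counts scaled by TMM-adjusted library size; SD, n = 4) in crushed cKO samples and 23.2 ± 3.76 CPM in crushed control samples, and 8.86 ± 1.51 CPM in uninjured cKO and 21.0 ± 5.14 CPM in uninjured control samples, with no overlap between the genotypes on either side. All 12 nociceptor markers, the Nav1.8 gene Scn10a among them, were detected in every group, but their levels were not constant. With crush, 0 of the 12 rose and 3 fell in cKO neurons and 1 rose and 7 fell in control neurons, Scn10a falling in both. With deletion, 0 rose and 1 fell after crush, and 2 rose and 4 fell in uninjured neurons. Over all genes tested, 5.43% and 19.7% were called with crush in cKO and control neurons. The shares with deletion after crush and in uninjured neurons were 6.59% and 20.7%. Schwann cell markers summed to 1836 to 2154 CPM in crushed cKO samples against 2359 to 2724 CPM in crushed control samples, and to 1726 to 2145 CPM in uninjured cKO against 2664 to 3130 CPM in uninjured control samples. Satellite glia markers summed to 2209 to 2599, 1845 to 2258, 2100 to 2208 and 1765 to 2131 CPM in crushed cKO, crushed control, uninjured cKO and uninjured control samples, and all 11 were above 0 in each group. Of the Schwann cell markers, Mag was at 0 in crushed control samples. Among the 11 Schwann cell markers, 1 rose (Mag) and 1 fell (S100b) with deletion after crush. In uninjured neurons 0 rose and 2 fell with deletion (S100b and Scn7a). Among the 11 satellite glia markers, 0 were called with deletion after crush, and in uninjured neurons 0 rose and 1 fell (Slc1a3). Macrophage markers summed to 17.0 to 35.5, 11.7 to 45.8, 9.90 to 21.1 and 2.51 to 9.18 CPM in the same order of groups, with Itgam at 0 in crushed control and Cd163 at 0 in uninjured control samples. Vascular and fibroblast markers summed to 170.3 to 449.1 CPM in crushed cKO against 51.8 to 110.6 CPM in crushed control samples, and to 155.7 to 276.5 CPM in uninjured cKO against 86.7 to 254.5 CPM in uninjured control samples. Lymphocyte and neutrophil markers summed to 25.9 to 38.4, 10.2 to 30.3, 7.07 to 10.6 and 1.43 to 3.38 CPM in crushed cKO, crushed control, uninjured cKO and uninjured control samples. Large-fibre neuron markers summed to 380.9 to 523.3, 403.8 to 572.6, 506.9 to 781.1 and 614.1 to 1087 CPM in the same order of groups. Of these 10 markers, 0 rose and 2 fell with crush in control neurons (Etv1 and Nefh). Etv1 also fell with deletion in uninjured neurons, and none was called with crush in cKO or deletion after crush. These marker sums differ between the groups compared below. Their part in the results was not tested beyond 1 fit with the satellite glia markers as a covariate. Aliquot C of crushed cKO replicate 3 stood apart, with 15493 genes detected against 15925 to 20466 in the others and a mean correlation of 0.881 with its own aliquots against 0.912 to 0.978. Leaving out aliquot C of crushed cKO replicate 3 changed no call among the 8 genes. Aliquot C of crushed cKO replicate 4 had the lowest depth of the 48 libraries (5159353 gene counts) and the largest share of reads outside genes (19.368%). It was not left out on its own.

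In control neurons crush raised the transcripts of 3 of the 8 genes, Irs2, Grb10 and Akt1, and lowered Igf1r. Throughout, "rose" and "fell" mark changes with an adjusted p under 0.05 in the quasi-likelihood test of edgeR (two-sided, Benjamini-Hochberg over all 19048 genes). By that rule 19.7% of all genes were called in this comparison, 11.0% of them higher and 8.68% lower, counted over all genes tested. The same 4 of the 8 genes had no overlap between crushed and uninjured control samples, which was so for 21.0% of all genes.

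In cKO neurons crush raised Irs2 and lowered Igf1r, and the other 6 genes were not called. The share of all genes called was 5.43%, with 2.57% higher and 2.86% lower. Irs2 and Igf1r were also the 2 genes without overlap between crushed and uninjured cKO samples, against 14.5% of all genes.

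Loss of Tsc2 in uninjured neurons raised Grb10, Akt1 and Insr and lowered Igf1r. In this comparison 20.7% of all genes were called, 11.7% higher and 9.02% lower. All 4 of these genes had no overlap between uninjured cKO and uninjured control samples, as did 25.4% of all genes. This comparison and that of crush in control neurons share the 4 uninjured control samples, so they are not independent of each other.

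After crush, Igf1r was lower in cKO than in control neurons, and it was the only one of the 8 genes called. The share called was 6.59% of all genes, 3.38% higher and 3.21% lower. Grb10 was the 1 gene without overlap between crushed cKO and crushed control samples, against 13.2% of all genes, and it missed the threshold. The interaction, which asks whether the crush response differed between the genotypes, was called for Grb10 alone among the 8, and for 1.76% of all genes (0.22% with a higher and 1.54% with a lower response in cKO).

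**Figure D1:**
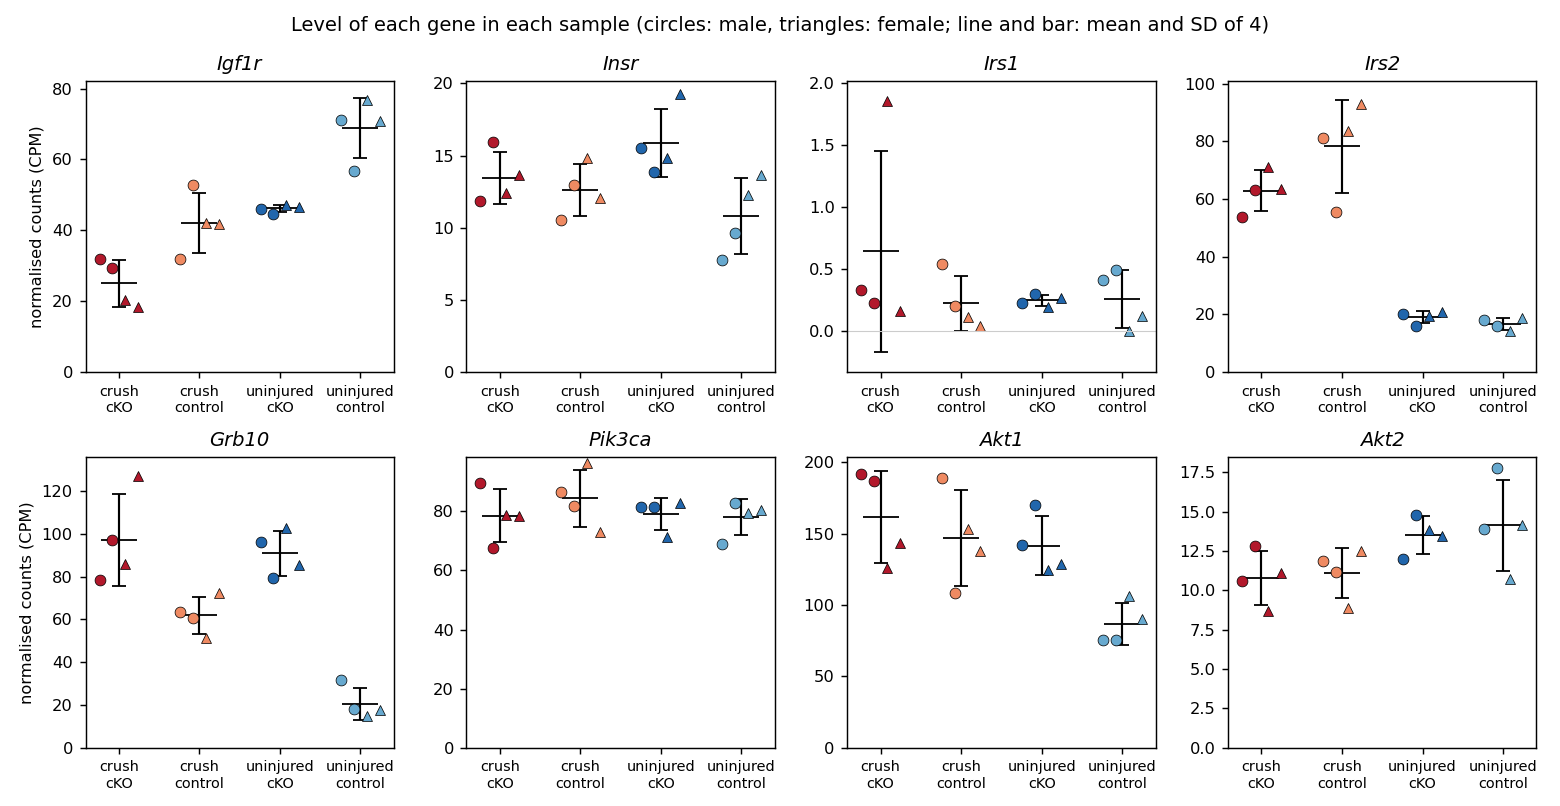
Level of each of the 8 genes (TMM-scaled CPM, vertical axes starting at 0 except for Irs1, whose SD bar reaches below 0) in each of the 16 samples, by group, with circles for male and triangles for female replicates and a line and bar for the mean and SD of 4. Igf1r steps down over the groups from right to left, Irs2 is high in both crushed groups, and Grb10 is lowest in the uninjured control samples, at 14.6 to 31.6 CPM.

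Igf1r encodes the IGF1 receptor (ENSMUSG00000005533; mm10 chr7:67952827-68233668, plus strand). It had 31.87, 29.42, 20.42 and 18.49 CPM in crushed cKO replicates 1 to 4, and 31.85, 52.80, 41.94 and 41.82 CPM in crushed control replicates. In every group replicates 1 and 2 were male and 3 and 4 female. The female crushed cKO samples thus lay below the male ones, and they also hold the 2 aliquots C named above. The part of sex was not tested. It had 46.12, 44.69, 47.25 and 46.61 CPM in uninjured cKO replicates, and 71.15, 56.83, 76.80 and 70.83 CPM in uninjured control replicates. The lowest uninjured control sample lay above all other samples, and the crushed cKO samples lay below all others except crushed control replicate 1, whose 31.85 CPM fell just below the 31.87 CPM of crushed cKO replicate 1.

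Igf1r fell in all 4 comparisons. Crush changed it by -0.71 ± 0.17 on the log2 scale (± SE) in control neurons (edgeR adjusted p = 0.00884) and by -0.88 ± 0.18 in cKO neurons (edgeR adjusted p = 0.00705). The Tsc2 deletion changed it by -0.58 ± 0.17 in uninjured neurons (edgeR adjusted p = 0.0272) and by -0.75 ± 0.18 after crush (edgeR adjusted p = 0.0163). The interaction was -0.17 ± 0.25 (edgeR adjusted p = 0.842), and so a difference between the 2 crush responses was not detectable with these samples. The fall with deletion in uninjured neurons lost its call in 6 of 16 fits that left out 1 sample (uninjured control 1, 3 or 4, or uninjured cKO 1, 2 or 4), at -0.53 to -0.58 and adjusted p of 0.0565 to 0.0665. The fall with deletion after crush lost its call without crushed control replicate 2 (-0.61, adjusted p = 0.0571) or crushed cKO replicate 3 (-0.65, adjusted p = 0.0539). That fall also lost its call with the satellite glia covariate (-0.74, edgeR adjusted p = 0.0629). So did the fall with crush in cKO neurons (-0.87, edgeR adjusted p = 0.0603). In bulk RNA of about 100 sorted cells, fewer cells expressing a gene and less RNA per cell cannot be told apart.

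Insr encodes the insulin receptor (ENSMUSG00000005534; mm10 chr8:3122061-3279617, minus strand). It had 15.55, 13.87, 14.85 and 19.24 CPM in uninjured cKO replicates, against 7.74, 9.63, 12.2 and 13.67 CPM in uninjured control replicates. Every uninjured cKO sample was above every uninjured control sample, with cKO replicate 2 and control replicate 4 close together. The log2 change was 0.55 ± 0.19 (edgeR adjusted p = 0.0468), just inside the threshold. The call was lost in 11 of the 16 fits that left out 1 sample (uninjured control 1 or 2, any uninjured cKO replicate, crushed control 3 or 4, or crushed cKO 1, 2 or 4), at changes of 0.42 to 0.61 and adjusted p of 0.0522 to 0.154.

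After crush Insr had 11.87, 15.94, 12.37 and 13.66 CPM in cKO replicates and 10.52, 12.97, 14.84 and 12.03 CPM in control replicates, and these ranges overlap. Crush changed it by -0.24 ± 0.19 in cKO and by 0.22 ± 0.19 in control neurons, neither of them called (edgeR adjusted p = 0.607 and 0.468). The SD of log2 CPM between aliquots of 1 replicate was highest for Insr among the 8 genes, at 0.78 against 0.40 between replicate means. For Igf1r the same SDs were 0.35 and 0.27. The SDs include the aliquot that stood apart, with 0.369 CPM of Insr against 14.2 to 16.4 CPM in the other 2 aliquots of that replicate. They were not computed without it, so the ranking may rest on that aliquot.

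The transcripts of the docking protein genes differed in level. Irs2 (ENSMUSG00000038894; mm10 chr8:10984681-11008458, minus strand) carried most of the docking protein transcripts. It had 53.6, 63.2, 71.15 and 63.4 CPM in crushed cKO replicates and 81.3, 55.3, 83.6 and 92.96 CPM in crushed control replicates. It had 20.1, 16, 19.3 and 20.7 CPM in uninjured cKO replicates and 18.1, 15.8, 14.1 and 18.8 CPM in uninjured control replicates. The lowest crushed sample, at 53.6 CPM, was above the highest uninjured sample, at 20.7 CPM, while the genotypes overlapped on both sides.

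Crush raised Irs2 4.68-fold in control neurons, a log2 change of 2.23 ± 0.16 (edgeR adjusted p = 8.47e-08), and 3.30-fold in cKO neurons, a log2 change of 1.72 ± 0.16 (edgeR adjusted p = 1.58e-05). These 2 calls held in every alternative fit that was run, with changes of 2.16 to 2.38 in control and 1.58 to 1.83 in cKO neurons. The Tsc2 deletion changed Irs2 by 0.19 ± 0.15 in uninjured neurons (edgeR adjusted p = 0.445) and by -0.32 ± 0.15 after crush (edgeR adjusted p = 0.248). The interaction was -0.50 ± 0.21 (edgeR adjusted p = 0.310). The promoter shown first above belongs to this gene, and its insulin response element core is shared with Irs1.

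Irs1 (ENSMUSG00000055980; mm10 chr1:82233101-82291416, minus strand) was near the limit of detection. Its counts were 16, 14, 75 and 6 in crushed cKO replicates, 35, 9, 6 and 2 in crushed control replicates, 11, 17, 12 and 16 in uninjured cKO replicates and 24, 26, 0 and 6 in uninjured control replicates. The 75 counts of crushed cKO replicate 3 equal 1.85 CPM, and the next highest sample, crushed control replicate 1, had 0.543 CPM. The count of 0 in uninjured control replicate 3 allows up to 0.0543 CPM, taking 3 counts as the floor, a limit for counting error only. No change passed the test, and log2 changes had an SE of 1.08 to 1.09, so that changes of less than several-fold were not detectable at this depth. The protein-coding gene Gm9747 on the opposite strand shares 2822 bases, 30.9%, of the Irs1 exons. Gm9747 itself had 0 counts, and the library kit does not mark strand, so reads from the shared bases cannot be told apart. Such reads may be missing from the Irs1 counts, which would also lower its level per kilobase and raise the Irs2 to Irs1 ratio. The size of this effect was not tested.

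Grb10 encodes the adaptor that restrains both receptors (ENSMUSG00000020176; mm10 chr11:11930508-12038683, minus strand). It had 78.25, 97.36, 86.08 and 127.0 CPM in crushed cKO replicates and 63.38, 60.88, 51.29 and 72.43 CPM in crushed control replicates. It had 96.11, 79.43, 102.8 and 85.42 CPM in uninjured cKO replicates and 31.64, 18.10, 14.61 and 17.59 CPM in uninjured control replicates. The 4 uninjured control samples were the lowest of all 16, the crushed control samples came next, and the 2 cKO groups overlapped at the top.

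The deletion raised Grb10 4.44-fold in uninjured neurons, a log2 change of 2.15 ± 0.22 (edgeR adjusted p = 4.27e-06). Crush raised it 3.03-fold in control neurons, by 1.60 ± 0.21 on the log2 scale (edgeR adjusted p = 6.49e-05). In cKO neurons crush changed it by 0.10 ± 0.21 (edgeR adjusted p = 0.899). The interaction of -1.50 ± 0.29 (edgeR adjusted p = 0.0120) tests this difference between the genotypes, and it was called in every alternative fit except that with the satellite glia covariate (-1.47, adjusted p = 0.0674). After crush the deletion changed Grb10 by 0.65 ± 0.21 (edgeR adjusted p = 0.0752), with all 4 cKO samples above all 4 control samples. That difference passed the threshold in 5 alternatives, among them DESeq2 (adjusted p = 0.0244), limma-voom (adjusted p = 0.0371) and the fit without uninjured control replicate 1 (adjusted p = 0.0168), the sample with the highest Grb10 of its group.

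**Figure D2:**
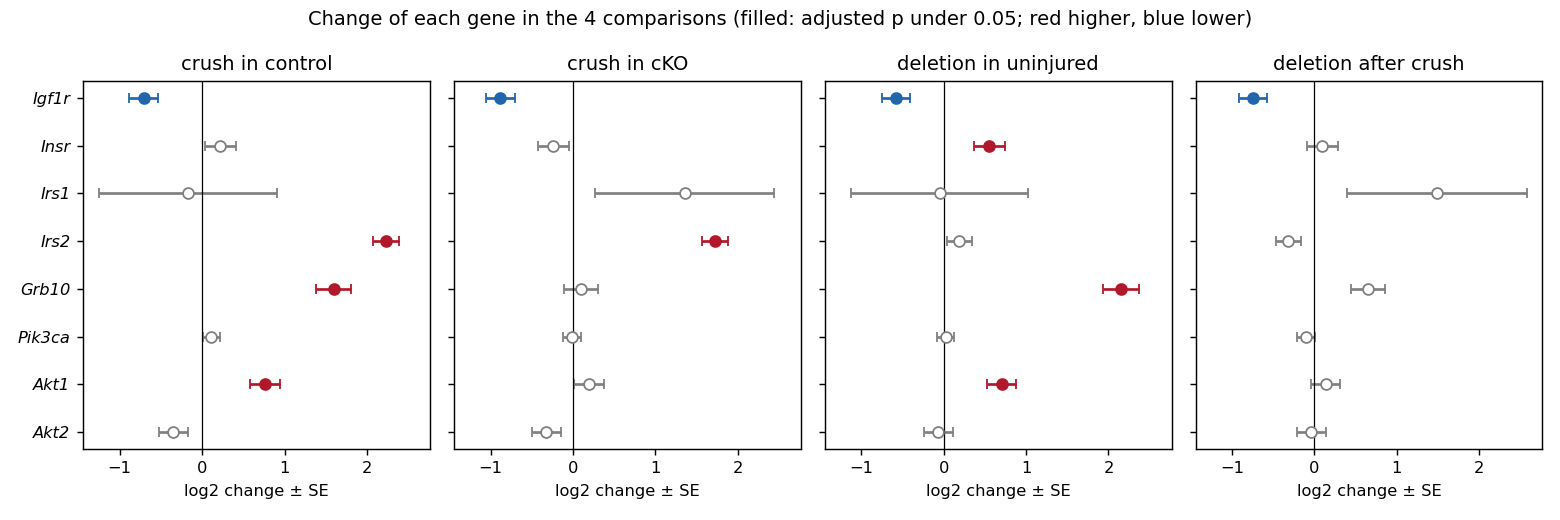
Log2 change of each gene (± SE, horizontal axes) in the 4 comparisons, with filled points where the edgeR adjusted p was under 0.05, red for higher and blue for lower in the crushed or cKO group. Igf1r is filled in all 4 panels, Irs2 in the 2 crush panels, and Grb10 and Akt1 in the panels of crush in control and of deletion in uninjured neurons, which share the uninjured control samples.

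Pik3ca encodes p110-alpha, the catalytic PI3K subunit that insulin and IGF1 receptors mainly use (ENSMUSG00000027665; mm10 chr3:32397671-32468486, plus strand). It was the steadiest of the 8 genes, at 67.7 to 89.5 CPM in crushed cKO, 73.1 to 96.2 CPM in crushed control, 71.2 to 82.7 CPM in uninjured cKO and 69.1 to 82.9 CPM in uninjured control samples. All 4 ranges overlap. Its log2 changes ran from -0.10 to 0.11 over the 4 comparisons, with an SE of 0.11 in each, and none was called. The SD of its log2 CPM was 0.21 between aliquots and 0.14 between replicate means.

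Akt1 encodes the AKT kinase of general growth signalling (ENSMUSG00000001729; mm10 chr12:112653821-112674884, minus strand). It had 191.4, 186.5, 125.8 and 143.5 CPM in crushed cKO replicates and 189.1, 108.3, 153.2 and 138.1 CPM in crushed control replicates. It had 142.1, 170.2, 124.7 and 128.4 CPM in uninjured cKO replicates and 75.75, 75.18, 106.2 and 89.92 CPM in uninjured control replicates. The uninjured control samples were all below the other 12, and the other 3 groups overlapped.

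Crush raised Akt1 by 0.76 ± 0.18 on the log2 scale in control neurons (edgeR adjusted p = 0.00644) and the deletion raised it by 0.70 ± 0.18 in uninjured neurons (edgeR adjusted p = 0.0101). Crush in cKO neurons and deletion after crush changed it by 0.20 ± 0.18 and 0.14 ± 0.18, neither called (edgeR adjusted p = 0.675 and 0.752). The interaction of -0.57 ± 0.25 did not pass (edgeR adjusted p = 0.334), so the crush response was not shown to differ between the genotypes. The 2 calls held in every alternative that was run.

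Akt2 encodes the AKT kinase best known for insulin-stimulated glucose uptake in muscle and fat (ENSMUSG00000004056; mm10 chr7:27591552-27640826, plus strand). It had 8.67 to 12.8 CPM in crushed cKO, 8.91 to 12.5 CPM in crushed control, 11.96 to 14.8 CPM in uninjured cKO and 10.7 to 17.8 CPM in uninjured control samples, which all overlap. Crush changed it by -0.32 ± 0.18 in cKO and -0.35 ± 0.18 in control neurons (edgeR adjusted p = 0.382 and 0.188), and the deletion by -0.04 ± 0.18 after crush and -0.06 ± 0.18 in uninjured neurons. None of these was called. The aliquot that stood apart held 0.369 CPM of Akt2 and 0.369 CPM of Insr, against 6.07 to 17.5 and 14.2 to 16.4 CPM in the other 2 aliquots of that replicate.

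Divided by exon length, the levels can be set beside each other as CPM per kilobase. Akt1 was the most abundant of the 8 transcripts in each group, at 39.5 CPM per kilobase in crushed cKO, 35.9 in crushed control, 34.5 in uninjured cKO and 21.2 in uninjured control samples. In uninjured control samples Pik3ca came next at 8.58 ± 0.67, then Igf1r at 4.10 ± 0.51, followed by Irs2 at 2.64 ± 0.34, Grb10 at 2.25 ± 0.84 and Akt2 at 1.98 ± 0.40 CPM per kilobase (SD, n = 4), and these last 3 overlap within their SDs. In crushed cKO samples Grb10 at 10.7 ± 2.35, Irs2 at 9.94 ± 1.14 and Pik3ca at 8.64 ± 0.98 CPM per kilobase had the same order of magnitude, and Igf1r was at 1.49 ± 0.39, next to Akt2 at 1.51 ± 0.24. Insr was at 0.98 CPM per kilobase in crushed cKO, 0.92 in crushed control, 1.16 in uninjured cKO and 0.79 in uninjured control samples. Irs1 was at 0.0702 or less in every group mean.

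Ratios within a sample do not depend on library scaling, and they are given as a description. The log2 ratio of Grb10 to Igf1r counts averaged 1.97 ± 0.63 in crushed cKO, 0.57 ± 0.38 in crushed control, 0.97 ± 0.14 in uninjured cKO and -1.80 ± 0.52 in uninjured control samples (SD, n = 4). Igf1r counts exceeded Grb10 counts in the 4 uninjured control samples and in no other sample. The log2 ratio of Igf1r to Insr counts averaged 0.87 ± 0.42 in crushed cKO, 1.73 ± 0.23 in crushed control, 1.55 ± 0.19 in uninjured cKO and 2.70 ± 0.36 in uninjured control samples, with uninjured control samples above all others. Irs2 counts exceeded Irs1 counts in every sample, with a lowest log2 ratio of 4.97.

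**Figure D3:**
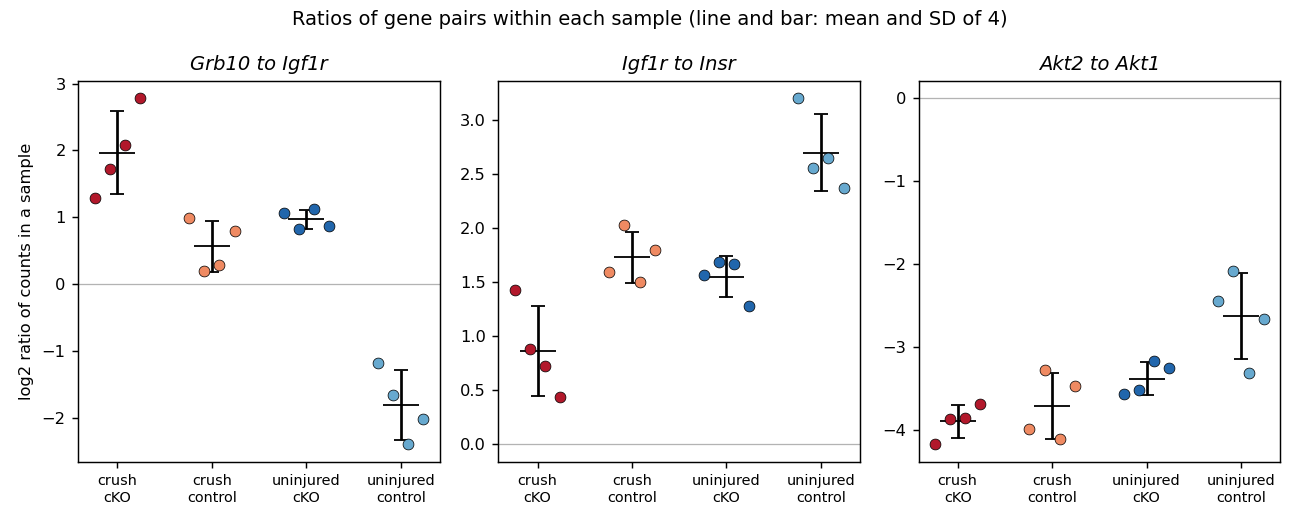
Log2 ratios of the counts of 2 genes within each sample (vertical axes), by group, with a line and bar for the mean and SD of 4. The Grb10 to Igf1r ratio is below 0 in the uninjured control samples and above 0 in the other 12, the Igf1r to Insr ratio is above 0 throughout, and the Akt2 to Akt1 ratio is below 0 throughout.

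The transcripts around these 8 genes were grouped into 9 lists by role, some of which hold members of the 8 as well. Several genes for extracellular IGF partners rose. IGFBP3, the main IGF carrier of serum, is encoded by Igfbp3, which averaged 111 ± 26.3 CPM in crushed cKO, 32.5 ± 9.77 CPM in crushed control, 56.1 ± 12.9 CPM in uninjured cKO and 4.66 ± 2.22 CPM in uninjured control samples. It rose by 2.81 ± 0.37 on the log2 scale with crush in control neurons, by 3.59 ± 0.38 with deletion in uninjured neurons and by 1.77 ± 0.35 with deletion after crush (edgeR adjusted p = 5.84e-05, 7.52e-06 and 0.00585). Igfbp5, another IGF carrier, rose with deletion by 3.25 ± 0.46 in uninjured neurons and by 1.55 ± 0.43 after crush, and fell by 1.70 on the log2 scale with crush in cKO neurons. Pappa2, a protease that frees IGF from its carriers, rose by 4.64 ± 0.81 with crush in control and by 3.69 ± 0.78 with deletion in uninjured neurons, with means of 8.05, 10.6, 5.48 and 0.423 CPM in crushed cKO, crushed control, uninjured cKO and uninjured control samples.

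Of 13 genes tested for IGF ligands, carriers and their proteases, 3 rose and 1 fell with crush in control neurons, 0 rose and 1 fell with crush in cKO neurons, 3 rose and 0 fell with deletion in uninjured neurons, and 4 rose and 0 fell with deletion after crush. Their median log2 change was 0.52, 0.52, 0.50 and 0.54 in these comparisons, against -0.03, 0.00, 0.02 and 0.00 over all genes tested. The shares of all genes called were 19.7%, 5.43%, 20.7% and 6.59% in the same order. The fall with crush in control neurons was that of Igfbp2 at -1.50 ± 0.34, and Pappa rose by 2.33 ± 0.74 there. With deletion after crush, Igfbp4 rose by 1.06 ± 0.23 and Igf2r, whose product takes up IGF2 for degradation, by 0.80 ± 0.21. Of 14 vascular and fibroblast markers tested, 2 rose and 0 fell with deletion after crush (Flt1 and Acta2) and 3 rose and 0 fell with deletion in uninjured neurons (these 2 and Pdgfrb), and their part in the rise of the carrier genes was not tested. Igf2 and Ins1 were below the count filter, with at most 0.296 and 0.0193 CPM.

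Of 23 adaptor genes at the receptors, 7 rose and 1 fell with crush in control neurons and 5 rose and 1 fell with deletion in uninjured neurons, with median log2 changes of 0.12 and -0.03. Beside Irs2 and Grb10, Shc2 rose by 1.01 ± 0.14 and Dok5, which docks at activated receptor kinases, by 1.86 ± 0.31 with crush in control neurons. With deletion in uninjured neurons these 2 rose by 0.74 ± 0.14 and 2.29 ± 0.32. With crush in cKO neurons 1 adaptor gene rose (Irs2) and Dok4 fell by 1.02 on the log2 scale. With deletion after crush 1 rose (Dok5, 1.12 ± 0.30) and 2 fell, Grb2 by 0.73 and Gab1 by 0.80 on the log2 scale. Over all genes, 19.7% and 5.43% were called with crush in control and cKO neurons. The shares with deletion in uninjured neurons and after crush were 20.7% and 6.59%.

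The PI3K genes called with crush were mostly lower. Of 14 tested, 1 rose and 4 fell in control neurons and 0 rose and 2 fell in cKO neurons, with medians of -0.45 and -0.14. Over all genes, 19.7% were called in control (8.68% lower) and 5.43% in cKO neurons (2.86% lower). Pik3r1, which encodes the p85-alpha regulatory subunit, averaged 200.5 ± 29.3 CPM in crushed cKO, 171.1 ± 14.6 CPM in crushed control, 336 ± 46.5 CPM in uninjured cKO and 280 ± 60.4 CPM in uninjured control samples. It fell in cKO neurons (-0.74 ± 0.16, edgeR adjusted p = 0.00911) and in control neurons (-0.71 ± 0.15, edgeR adjusted p = 0.00422). Pik3ip1, whose product inhibits PI3K, fell by 0.93 in cKO and by 0.95 in control neurons on the log2 scale. The deletion raised 2 and lowered 2 PI3K genes in uninjured neurons, and raised 1 after crush, Pik3r3 at 0.75 ± 0.14. The shares of all genes called with deletion were 20.7% in uninjured neurons and 6.59% after crush.

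Phosphatase genes that oppose PI3K and AKT were mixed. Of 15 such genes, 2 rose and 4 fell with crush in control, and 0 rose and 1 fell with crush in cKO. With deletion 3 rose and 5 fell in uninjured neurons, and 1 rose and 1 fell after crush. The shares of all genes called were 19.7%, 5.43%, 20.7% and 6.59% in the same order. Ppp2ca, the catalytic subunit of PP2A, rose by 0.88 ± 0.10 with crush in control and by 0.80 ± 0.10 with deletion in uninjured neurons, and Inpp5k fell in the same 2 comparisons by 0.98 and 0.86 on the log2 scale.

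Among 12 genes of AKT isoforms, AKT activators and mTORC2, 2 rose and 2 fell with crush in control, 0 rose and 2 fell with crush in cKO, 2 rose and 1 fell with deletion in uninjured neurons, and none was called for deletion after crush. In that last comparison 2 of the 12 had an unadjusted p under 0.05 in edgeR, and DESeq2 and limma-voom called 0, with medians of -0.15 in the list and 0.00 over all genes. Mtor rose by 0.49 ± 0.14 with crush in control and by 0.43 ± 0.14 with deletion in uninjured neurons. Over all genes, 19.7% and 5.43% were called with crush in control and cKO neurons. The shares with deletion in uninjured neurons and after crush were 20.7% and 6.59%. The next list held 19 genes, for AKT substrates and for other proteins, with Phlda3, Rheb, Tsc1 and As3mt among the latter. Of these 19, 5 rose and 1 fell with crush in control, with Phlda3 and Rheb among the rises. With deletion 3 rose and 2 fell in uninjured neurons and 2 rose and 1 fell after crush, Phlda3 rising in both. Tsc2 itself, the deleted gene, is on this list and is 1 of the 2 falls in uninjured neurons and the 1 fall after crush. With crush in cKO neurons edgeR called 0 of the 19, with 7 at an unadjusted p under 0.05, while DESeq2 called 2 and limma-voom 0. Phlda3, whose product competes with AKT for membrane lipid, rose by 2.07 ± 0.29 with crush in control, by 2.66 ± 0.29 with deletion in uninjured neurons and by 1.33 ± 0.28 with deletion after crush.

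Several genes for feedback inhibitors of receptor signalling rose in the 2 comparisons with uninjured control samples. Of 20 tested, 8 rose and 1 fell with crush in control neurons and 5 rose and 1 fell with deletion in uninjured neurons, where 19.7% and 20.7% of all genes were called. There was 1 rise with crush in cKO neurons (Socs2, 0.77 ± 0.20), where 5.43% of all genes were called, and no edgeR call for deletion after crush, where 4 had an unadjusted p under 0.05 and DESeq2 and limma-voom called 2 each. Their median log2 changes were 0.17, 0.19, 0.09 and -0.07 in that order. The share of all genes called with deletion after crush was 6.59%. Beside Grb10, the tyrosine phosphatase gene Ptpn1, whose product dephosphorylates the insulin receptor, rose by 1.89 ± 0.34 with crush in control neurons, and Cish by 2.20 ± 0.47. Rps6kb1, which encodes S6 kinase 1, the mTORC1 target that phosphorylates IRS proteins, fell by 0.48 on the log2 scale with crush in control and by 0.52 with deletion in uninjured neurons.

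Igf1r, Insr and Irs2 are also known as FOXO-responsive genes, which AKT signalling represses through FOXO. Of 26 such genes tested, 6 rose and 6 fell with crush in control, 5 rose and 4 fell with crush in cKO, 8 rose and 1 fell with deletion in uninjured neurons, and 2 rose and 1 fell with deletion after crush. Irs2 was among those that rose with crush. Igf1r was among those that fell with crush in both genotypes, and it was the 1 gene that fell in each deletion comparison. The shares of all genes called were 19.7%, 5.43%, 20.7% and 6.59% in the same order. With crush in control neurons the stress genes Gadd45a and Cdkn1a rose by 3.75 ± 0.20 and 3.11 ± 0.22, and Cited2 by 3.15 ± 0.18. Gadd45a averaged 316 ± 68.4 CPM in crushed cKO, 318 ± 53.4 CPM in crushed control, 154 ± 29.6 CPM in uninjured cKO and 23.7 ± 3.53 CPM in uninjured control samples. Sesn3 fell with crush, by 1.12 in cKO and 0.77 in control neurons on the log2 scale, and rose with deletion by 0.78 ± 0.18 after crush and 1.13 ± 0.18 in uninjured neurons.

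The RAS and ERK branch runs from the same receptors. Of 24 of its genes, 3 rose and 5 fell with crush in control, and 2 rose and 2 fell with crush in cKO. With deletion 3 rose and 5 fell in uninjured neurons, and 0 rose and 1 fell after crush. The shares of all genes called were 19.7%, 5.43%, 20.7% and 6.59% in the same order. Spred1 and Nf1, which encode inhibitors of RAS, fell with deletion in uninjured neurons by 1.23 and 1.30 on the log2 scale, and Spred1 also after crush by 0.87. Sos1, the RAS exchange factor recruited by GRB2, fell with crush by 0.46 in cKO and 0.61 in control neurons on the log2 scale.

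**Figure D4:**
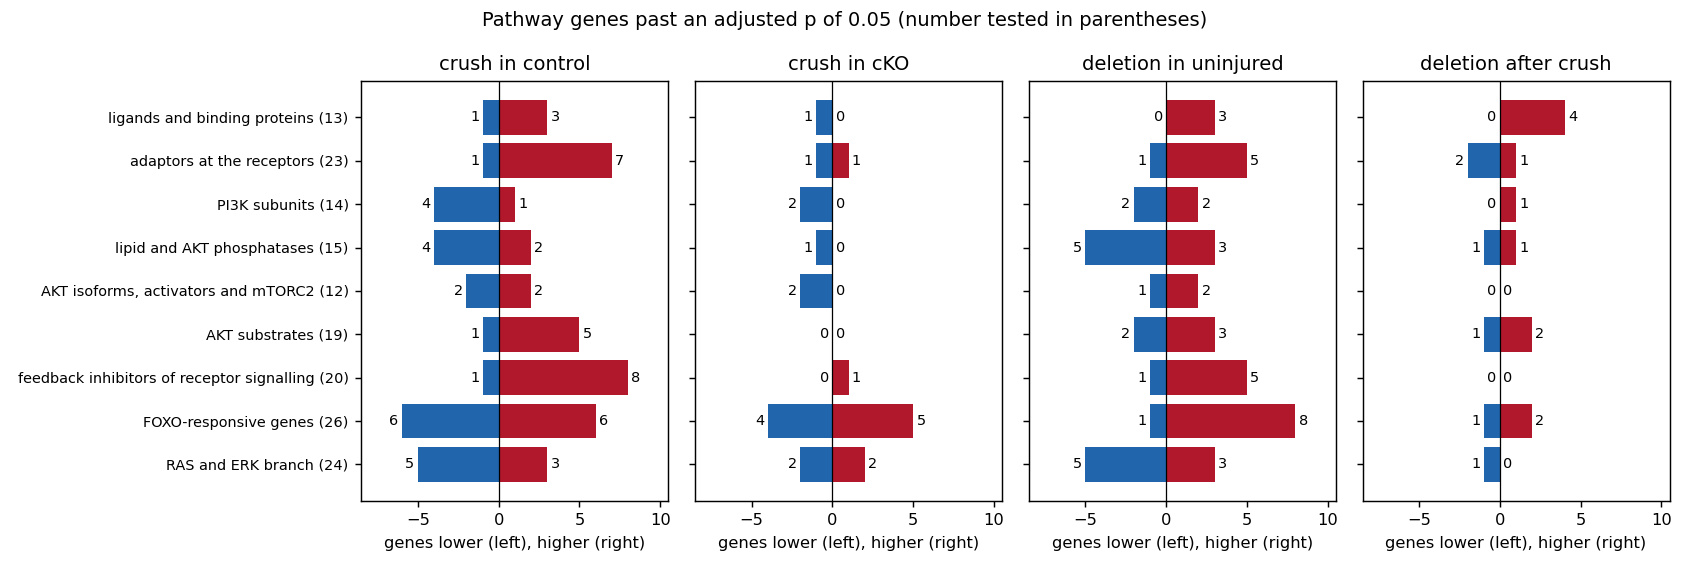
Number of genes in each of 9 pathway lists that were called lower (blue, left) or higher (red, right) at an edgeR adjusted p under 0.05 in the 4 comparisons, with the number tested in parentheses. Lists of receptor adaptors and of feedback inhibitors have 7 and 8 genes higher with crush in control neurons, where 19.7% of all genes were called. With crush in cKO neurons, where 5.43% were called, each has 1 gene higher. The list headed AKT substrates also holds Phlda3, Rheb, Tsc1 and As3mt, which do not encode AKT substrates.

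The genes whose log2 CPM followed each of the 8 most closely over the 16 samples were taken among 8477 tested genes with a mean of at least 10 CPM, as a description without a test, since the samples share groups and scaling. Igf1r was followed by Sorl1, a sorting receptor (Pearson r = 0.961), Lcp1 (0.959) and Dpp6, an auxiliary subunit of potassium channels (0.956). Irs2 was followed by the amino acid transporter gene Slc1a4 (0.966), Mtus2 (0.964) and Jpt1 (0.964). Akt1 was followed by the fatty acid synthase gene Fasn (0.956), Uchl1 (0.955) and Smarca4 (0.954), and Grb10 by the filamin gene Flnc (0.967), Sh3kbp1 (0.956) and the neuronal injury-induced peptidase gene Ecel1 (0.954). The closest genes to Insr, Akt2 and Pik3ca reached 0.887 (Kif3b), 0.870 (Epb41l5) and 0.746 (Zfp330), and that to Irs1 0.869 (Ube2d-ps), a value drawn from counts near 0. Among the 8 genes themselves, the correlation furthest from 0 was between Igf1r and Grb10, at -0.741.

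The authors' deposited table lists 8600 genes, each with an adjusted p under 0.05 in at least 1 of 3 comparisons, and 4 of the 8 genes are in it: Igf1r, Irs2, Akt1 and Grb10. The header of the authors' deposited table does not name the group that each comparison is set against. Over 8597 shared genes, its columns headed crushed cKO, crushed control and uninjured cKO correlated at 0.990, 0.984 and 0.985 with the differences of those groups from uninjured control samples computed here, so they are read as set against that group. In the authors' deposited table the log2 fold changes headed crushed cKO, crushed control and uninjured cKO were -1.48, -0.72 and -0.63 for Igf1r, and 1.85, 2.22 and 0.17 for Irs2. In the authors' deposited table they were 0.90, 0.75 and 0.67 for Akt1, and 2.24, 1.53 and 2.13 for Grb10.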

How the data were processed

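RNA from sorted cells was made into libraries with the SMARTer Ultra Low kit and read as single reads of 50 bases on a HiSeq-3000, per the labels' protocols. For each of 48 libraries the authors deposited counts of reads as whole numbers by Ensembl identifier, made with FastQC, STAR and HTSeq on mm10, per the submitters' processing notes, and no version or strand setting is given in the sources used here. They carry no normalization. The kit names no molecular identifiers, so counts include amplification copies, and intervals and floors cover counting error only. In these files 5 HTSeq summary lines, which name no gene, were set aside. As shares of all lines, reads with several alignments made up 37.488 to 46.12%, reads outside genes 5.921 to 19.368% and ambiguous reads 1.915 to 2.576%. Of 47643 identifiers, 47224 matched a symbol in GENCODE M21 (mm10), which gave coordinates and exon lengths.

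A further table deposited by the authors holds log2 fold changes, their standard errors (taken as a score with no fixed range) and p-values, per the file headers. DESeq2 is named in the submitters' processing notes. It was used only for the values credited to it.

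Counts of the 3 aliquots were summed per replicate and side because they are technical replicates in the labels. The labels call the replicates biological and do not say which samples came from the same animal, so p-values measure the spread between these 16 samples. The sums were compared by edgeR 4.0.16 under R 4.3.3 (TMM scaling, filterByExpr, 1 mean per group, all 4 groups in 1 fit, two-sided quasi-likelihood test, Benjamini-Hochberg adjustment, threshold 0.05), for 4 comparisons and the interaction of crush and deletion. The SE is the size of a log2 change divided by the square root of F. The same code was tested on simulated counts. Alternatives were DESeq2 size factors, DESeq2 1.42.0, limma-voom (limma 3.58.1), no low-count filter and a mean of at least 5 CPM. Further ones were equal weights for aliquots with limma-trend, the satellite glia markers as a covariate and leaving out each of the 16 samples. Blocks were fitted by replicate number, or by genotype and replicate number as if both sides came from 1 animal. Leaving out aliquot C of crushed cKO replicate 3 was added after seeing the data. Neighbour genes used log2 CPM with a prior count of 2.

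The 8 genes, the 9 pathway lists and the marker lists were chosen with earlier results of these data known, and no list was tested as a set. Genes named from a list are the up to 4 called with the smallest p in a comparison, and the text gives a choice of them, with some list genes not reported here. Promoters are from RefSeq (GRCm38.p6).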

Additional observations from a re-analysis of the deposited data

Results flagged for a closer look

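Among 32 combinations of gene and group, 2 held a sample set far from the other 3, where chance gives about 1 in 20. Irs1 in crushed cKO replicate 3 had 1.85 CPM, the highest of its group. Pik3ca in uninjured cKO replicate 3 had 71.2 CPM, the lowest of its group.

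The crush response differed between cKO and control neurons by the interaction test of edgeR for Grb10 at -1.50 (log2, cKO response minus control response) and for 6 genes of the pathway lists. Their interactions were -0.81 for Ppp2ca, 0.81 for Inpp5k, -2.71 for Gadd45a, -2.50 for Cdkn1a, -1.91 for Cited2 and -1.30 for Rps6ka1. In each of these 7 genes the interaction shares the 4 uninjured control samples with the response in control neurons. The interaction was called for 1.76% of all genes.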

How the results depend on the processing

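Of 40 values (8 genes in 5 comparisons), 12 were called. Those of Irs2, Akt1 and Grb10 in single comparisons, and of Igf1r with crush in control neurons, held in all alternatives run. With the satellite glia covariate 4 calls were lost, among them those of Igf1r with crush in cKO (-0.87, adjusted p = 0.0603) and with deletion after crush (-0.74, adjusted p = 0.0629) and the Grb10 interaction (-1.47), so that called genes of the 8 numbered 1, 0 and 0 in those 3 comparisons. The fourth was Insr with deletion in uninjured neurons (0.52), which was also lost with DESeq2 size factors (0.54), no low-count filter (0.56) and equal aliquot weights (0.63, adjusted p = 0.156). Genes called for deletion after crush among the 8 numbered 2 in DESeq2, in limma-voom, with a mean of at least 5 CPM and with equal aliquot weights, since Grb10 joined Igf1r. Leaving out 1 sample gave 2 to 4 of the 8 called with deletion in uninjured neurons and 0 to 2 with deletion after crush. The cause of these changes was not tested.

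Over all genes, DESeq2 called 1646 with crush in cKO, 2042 with deletion after crush and 743 for the interaction, against 1034, 1256 and 335 in edgeR, and the glia covariate left 331, 605 and 190. Leaving out 1 sample gave 618 to 1082 with crush in cKO, and less than 1034 divided by 1.5 without uninjured cKO 1, 2 or 3 or crushed cKO 4, and 202 to 485 for the interaction, where the lowest was without uninjured cKO 1.

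Changes of sign occurred only in values that were not called. Equal aliquot weights gave -0.26 for Insr with deletion after crush, 0.26 for Irs1 and 0.031 for Akt2 with deletion in uninjured neurons, -0.36 for the Akt2 interaction and 0.037 for Pik3ca with crush in cKO. For the last, DESeq2 size factors gave 0.0045, DESeq2 0.0044 and the glia covariate 0.0091. Limma-voom gave 0.50 for Irs1 with crush in control and 1.02 with deletion in uninjured neurons. Without aliquot C, Akt2 with deletion after crush was 0.031. Leaving out 1 sample gave Irs1 -1.08 to 0.37 with crush in control, -0.045 to 1.69 with crush in cKO and -0.47 to 0.49 with deletion in uninjured neurons. It gave Akt2 -0.18 to 0.068 with deletion in uninjured neurons, -0.14 to 0.060 with deletion after crush and -0.11 to 0.13 for the interaction. It gave Pik3ca -0.082 to 0.052 with crush in cKO and -0.029 to 0.068 with deletion in uninjured neurons, and Grb10 -0.045 to 0.19 with crush in cKO.

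The labels do not say that samples with the same replicate number are paired. Deviations of same-numbered samples correlated at 0.041 to 0.152 between sides and 0.009 to 0.064 between genotypes. Each of 8 crushed samples correlated best with the uninjured sample of its own number and genotype. Every crushed cKO sample also correlated best with the crushed control sample of its number, from a different mouse. So did uninjured cKO replicates 2 and 4 with uninjured control samples. Replicate number goes with sex in every group. The match by number is thus a hint from the data and not from the design, and it does not single out samples of 1 animal. With the replicate block no call among the 8 genes changed, and all genes called numbered 3770 and 1075 for crush in control and cKO neurons, 3909 and 1314 for deletion in uninjured neurons and after crush and 298 for the interaction. The block turned the sign of Irs1 with deletion in uninjured neurons (0.22) and of the Akt2 interaction (-0.0060). A block for each genotype and replicate number turned Irs1 with crush in control (0.12). None of these values was called.

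Irs1 had at most 75 counts in a sample. The SD of log2 CPM between aliquots was highest for Insr (0.78) and Akt2 (0.72), followed by Grb10 (0.57) and Irs2 (0.55). These SDs include aliquot C of crushed cKO replicate 3, which held 0.369 CPM of Insr and 0.369 CPM of Akt2. The ranking without that aliquot was not computed.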
